A study of Mus musculus with 4 samples.

Results

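A set of 10 imprinted genes that act in fetal growth was read from the RNA-seq table of mouse lungs at embryonic day (E) 16.5. The members were the rows whose symbol is H19, Igf2, Igf2r, Dlk1, Meg3, Cdkn1c, Peg3, Mest, Plagl1 or Grb10. All 10 were found among the 22556 genes of the table. Whole lungs of 2 genotypes were sequenced, with 2 libraries each. Control embryos carried Shh-Cre with 1 floxed and 1 intact Stk11 allele, and Shh-Stk11 embryos carried Shh-Cre with both Stk11 alleles floxed. Cre driven from Shh is active in the endoderm, so recombination was directed to the lung epithelium while mesenchyme, vessels and blood kept Stk11. C57BL/6 is the strain in the labels, but mice of mixed backgrounds are described in the study's methods. Neither source gives the litter or sex of an embryo, and both genotypes carried Cre.

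An imprinted gene is transcribed mainly from the copy inherited from 1 parent. Imprinted genes lie in clusters that share a control element, methylated in only 1 of the germ lines, and many of them regulate how fast the fetus and placenta grow. Igf2, Dlk1, Peg3, Mest and Plagl1 are active on the paternal copy, while H19, Igf2r, Meg3 and Cdkn1c are active on the maternal copy. Grb10 is expressed from the maternal copy in most tissues. Several of these genes are strongly expressed before birth and decline together as growth slows. The table gives 1 value per gene and library and does not separate the parental copies, so levels were measured and imprinting was not.

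Levels are given in FPKM, a read count per kilobase of transcript that is corrected for library size, so levels of different genes can be compared. Differences are log2 fold changes of Shh-Stk11 against Control on log2(FPKM + 0.1), tested with limma over the 13770 genes whose mean reached 0.5 FPKM, and the threshold was an adjusted p of 0.05. All 10 members passed that minimum. With 2 libraries per genotype an exact permutation test cannot go below p = 0.333. The p-values measure the spread between these libraries, which the methods of the study call independent biological replicates.

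Stk11 itself was at 44.0 and 45.5 FPKM in Control 1 and 2 and at 29.5 and 26.0 in Shh-Stk11 1 and 2, and it fell, with a log2 fold change of -0.69 (limma adjusted p = 0.0499). Both Shh-Stk11 libraries stayed below both Control libraries, but the call held in only 3 of 15 other ways of processing and was lost without any 1 library, with adjusted p in limma of 0.176 without Control 1, 0.183 without Control 2, 0.113 without Shh-Stk11 1 and 0.180 without Shh-Stk11 2. Sex differed between the libraries. Xist was at 65.1 to 169 FPKM in 3 libraries and at 0.239 in Shh-Stk11 2, the only library in which the Y-linked genes Ddx3y, Eif2s3y, Kdm5d and Uty exceeded 0.1 FPKM. Depth, recovered from the steps between low FPKM values, was about 30.9 M to 38.1 M reads per library. At that depth even Peg3, the lowest member, rested on an estimated 3770 reads or more in every library.

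None of the 10 members passed the threshold in limma, against 2.27% of all genes tested, 0.98% higher and 1.29% lower in Shh-Stk11. Peg3 came nearest with 2.17 times the Control mean in Shh-Stk11 (adjusted p = 0.0514), followed by Dlk1 with 0.607 times (adjusted p = 0.0823). The unadjusted p was under 0.05 for these 2 members only, against 15.2% of all genes. The Shh-Stk11 libraries lay wholly above the Control libraries for Peg3 and wholly below them for H19, Dlk1, Meg3 and Mest. Those 5 of 10 members without overlap compare with 46.8% of all genes, so the share was close to the background. The members' median log2 fold change was -0.17, beside -0.05 over all genes tested, and it was 0.02 without Shh-Stk11 2.

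**Figure D1:**
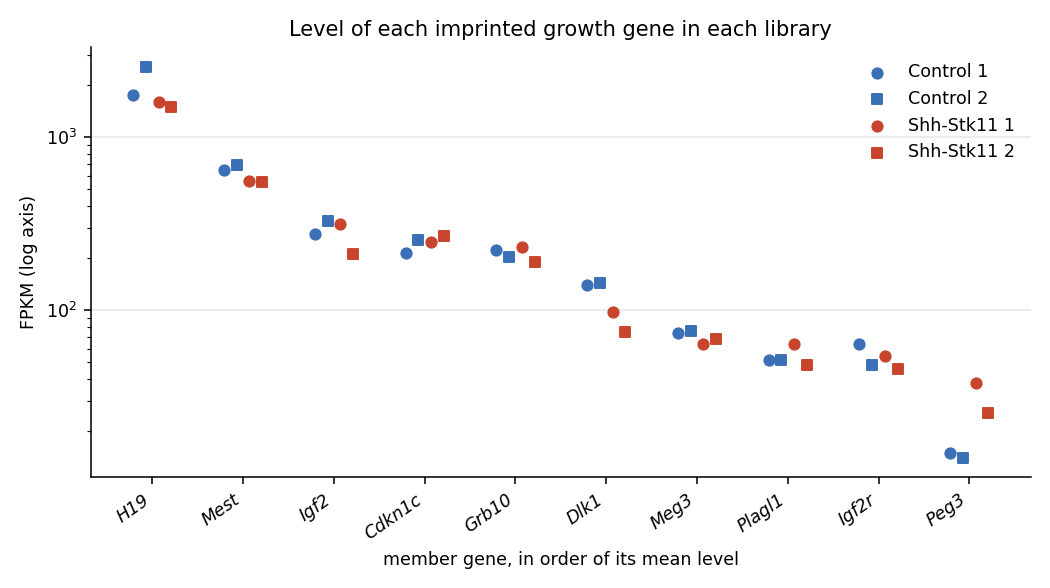
FPKM of the 10 members on a log axis, 1 point per library, with Control libraries in blue and Shh-Stk11 libraries in red (circles replicate 1, squares replicate 2). H19 reached 2551 FPKM in Control 2, and Peg3, at the other end, lay between 14.1 and 15.0 FPKM in Control and between 25.4 and 37.9 in Shh-Stk11.

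The members covered a wide range of levels. H19 was the most abundant, with a mean of 1850 FPKM over the 4 libraries and rank 33 in the table by its Control mean. Mest followed at 611 FPKM, and neither range over the libraries touched that of the next member. Igf2 at 282 FPKM, Cdkn1c at 246 and Grb10 at 212 came next, with overlap between Igf2 and Cdkn1c and between Cdkn1c and Grb10. Dlk1 at 114 FPKM and Meg3 at 70.5 overlapped through Shh-Stk11 2, in which Dlk1 was at its lowest. Plagl1 at 53.8 FPKM and Igf2r at 53.2 were not separated. Peg3 was the lowest at 23.1 FPKM, and its highest library stayed below the lowest value of every other member. The 10 genes together made up 0.524% to 0.695% of the summed FPKM of a library.

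The largest difference among the members was in Peg3, which encodes a zinc finger protein expressed from the paternal copy and known for effects on fetal growth. Just upstream of it lies a short stretch that reaches into Usp29, a paternally expressed gene transcribed in the opposite direction. The stretch is shown for this member because Peg3 and the genes around it had the clearest difference of the set. It is chr7:6730432-6730607 on the minus strand of GRCm38.p6 (RefSeq). It holds the bases between the first exons of both genes as GENCODE M21 draws them, and its first 30 bases belong to the Usp29 exon. The capitals mark a cAMP response element (CRE), TGACGTCA, which reads the same on both strands. It lies inside the 30 bases of the Usp29 exon. On each gene's strand, its first base is at -178 from the Peg3 start and at 7 from the Usp29 start in RefSeq. The motif was chosen after the sequences had been seen.
Peg3: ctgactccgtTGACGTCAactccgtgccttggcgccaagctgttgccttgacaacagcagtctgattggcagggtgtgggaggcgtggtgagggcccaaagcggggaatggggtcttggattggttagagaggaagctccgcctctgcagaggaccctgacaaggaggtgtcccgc

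Of the 10 members, 8 had windows of 250 bases before to 50 bases after a start in RefSeq, 15 windows in all. A CRE stood in 2 of the 15, those of Peg3 (the match in the Usp29 exon) and of the upstream start of Meg3. It stood in 1.79% of 32851 windows over all genes. Because the motif was picked from these sequences, the 2 shares cannot be compared as a test. H19 and Cdkn1c had no window in the table. The match is a description of letters and carries no evidence of binding.

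Peg3 was at 15.0 and 14.1 FPKM in Control 1 and 2 and at 37.9 and 25.4 FPKM in Shh-Stk11 1 and 2. Both Shh-Stk11 libraries were above both Control libraries, and they differed from each other more than the Control libraries did. The log2 fold change was 1.09 with a standard error (SE) of 0.20 and a 95% interval of 0.61 to 1.56 (limma adjusted p = 0.0514). It was past the threshold in 4 of 15 other ways of processing, among them the fit without Shh-Stk11 2, where it was 1.38 (limma adjusted p = 0.0248). Without Shh-Stk11 1 it was 0.80 (limma adjusted p = 0.120).

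Zim1, a maternally expressed zinc finger gene of the same cluster, moved the same way. It was at 2.87 and 3.18 FPKM in Control 1 and 2 and at 7.24 and 6.28 in Shh-Stk11 1 and 2, with no overlap. It rose by 1.13 on the log2 scale (SE 0.16, limma adjusted p = 0.0249). Usp29 lay under the minimum level and was not tested, at 0.129 and 0.107 FPKM in Control and 0.278 and 0.232 in Shh-Stk11. The ratio of Peg3 to Zim1 was 5.25 and 4.43 in Control and 5.23 and 4.04 in Shh-Stk11, and the groups overlapped.

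The calls in this cluster were near the limit of the data. The Zim1 call was lost whenever 1 library was left out, with adjusted p in limma of 0.163 without Control 1, 0.145 without Control 2, 0.114 without Shh-Stk11 1 and 0.0670 without Shh-Stk11 2. Peg3 and Zim1 also belong to the longest of 10 groups of genes by transcript length. The median log2 fold change was 0.19 over the genes of that group, against -0.19 in the shortest. Most of this lay in 1 library per genotype. In the longest group, the median deviation from the mean of the 4 libraries was -0.208 in Control 2 and 0.184 in Shh-Stk11 1. It was 0.0047 in Control 1 and 0.0197 in Shh-Stk11 2. With the trend on length and GC content removed from each library, Peg3 was at 0.78 (limma adjusted p = 0.0881) and Zim1 at 0.81 (limma adjusted p = 0.0846).

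**Figure D2:**
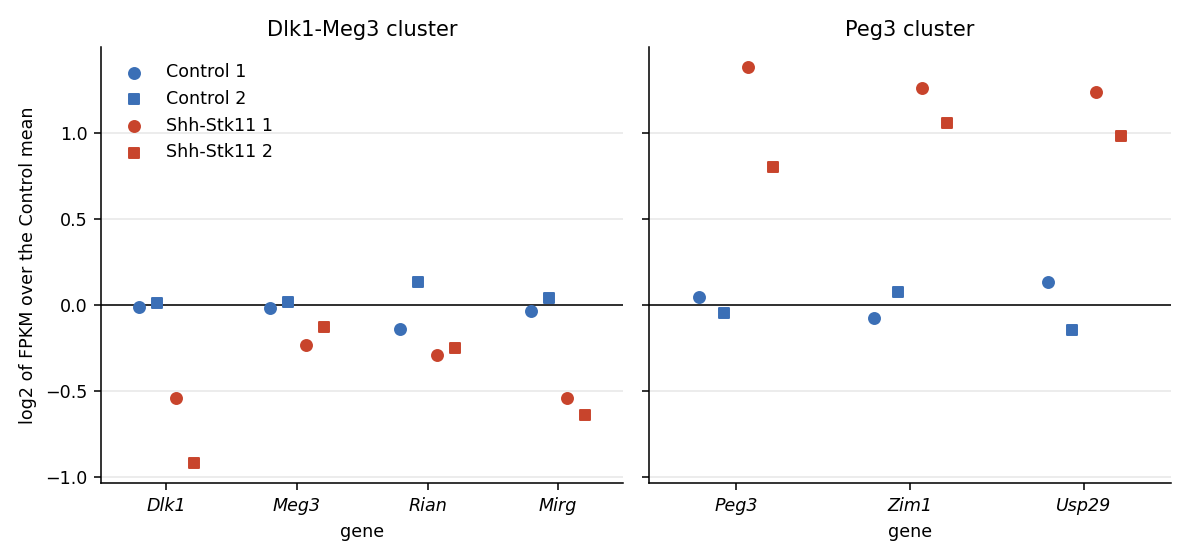
Log2 of each library's FPKM over the Control mean for genes of the Dlk1-Meg3 cluster (left) and the Peg3 cluster (right), with Control in blue and Shh-Stk11 in red. Both Shh-Stk11 libraries lie below the Control libraries for Dlk1, Meg3, Rian and Mirg and above them for Peg3, Zim1 and Usp29. Only Zim1 passed the threshold in limma, and Usp29 was too low to be tested. Dio3 of the Dlk1-Meg3 cluster, also too low to be tested and higher in both Shh-Stk11 libraries, is not shown.

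Dlk1 and Meg3 share a cluster on chromosome 12. Dlk1, on the paternal copy, encodes a membrane protein related to Notch ligands and is known in immature mesenchyme and epithelium. Meg3, on the maternal copy, is a long noncoding RNA, and Rian and Mirg are maternal noncoding RNAs downstream of it that carry snoRNAs and microRNAs. The 100 bases before the start of each member are shown because the pair differs in the motif found upstream of Peg3, in the Usp29 exon. Both are on the plus strand of GRCm38.p6 (RefSeq), Dlk1 at chr12:109452723-109452822 and Meg3 at chr12:109540896-109540995. The capitals mark the CRE, which these letters hold in Meg3 and not in Dlk1.
Dlk1: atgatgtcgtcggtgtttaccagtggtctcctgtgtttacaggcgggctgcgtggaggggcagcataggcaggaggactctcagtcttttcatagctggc
Meg3: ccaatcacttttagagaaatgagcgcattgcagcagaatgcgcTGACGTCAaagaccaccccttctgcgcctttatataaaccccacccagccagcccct

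Dlk1 was at 141 and 143 FPKM in Control 1 and 2 and at 97.5 and 74.9 FPKM in Shh-Stk11 1 and 2. The 2 Control libraries were nearly equal, and both Shh-Stk11 libraries lay below them. The log2 fold change was -0.73 (SE 0.16, 95% interval -1.12 to -0.34, limma adjusted p = 0.0823), between -0.92 and -0.54 over the 15 other ways of processing. It passed the threshold in 1 of them, a robust estimate of the spread (limma adjusted p = 0.0482). Without Shh-Stk11 2 it was -0.54 (limma adjusted p = 0.276).

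Meg3 was at 73.9 and 75.9 FPKM in Control 1 and 2 and at 63.6 and 68.4 in Shh-Stk11 1 and 2. The groups did not overlap, but the log2 fold change was only -0.18 (SE 0.12, limma adjusted p = 0.536), or -0.10 after quantile normalization. Meg3 is in the group of longest transcripts. After the correction for length and GC content its value was -0.63 (limma adjusted p = 0.262), so the correction moved it more than any other member. Within each library, Dlk1 was 1.90 and 1.89 times the level of Meg3 in Control and 1.53 and 1.09 times in Shh-Stk11.

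Rian, the most abundant neighbour in this cluster, was at 100.2 and 121 FPKM in Control and at 90.5 and 93.1 in Shh-Stk11 (log2 fold change -0.26, limma adjusted p = 0.457), or -0.13 without Control 2 and -0.40 without Control 1. Like Meg3, it moved with the correction for length and GC content, to -0.87 (limma adjusted p = 0.0586). Mirg was at 10.7 and 11.3 FPKM in Control and at 7.56 and 7.07 in Shh-Stk11 (-0.58, limma adjusted p = 0.0812). All 4 genes of the cluster with more than 5 FPKM, a limit set for this count, were lower in both Shh-Stk11 libraries. Of all genes tested, 27.6% were wholly lower in Shh-Stk11. None of the 4 passed the threshold, beside 2.27% of all genes. Of the other protein genes listed for the cluster, Rtl1 and Dio3 lay under the minimum level and were not tested. Rtl1 reached at most 0.396 FPKM. Dio3 went the other way, at 0.126 and 0.114 FPKM in Control and 0.546 and 0.271 in Shh-Stk11, without overlap. Begain lay between 1.46 and 2.11 FPKM, with overlap (log2 fold change -0.05, limma adjusted p = 0.949).

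H19 and Igf2 lie next to each other on chromosome 7 and compete for shared enhancers, H19 on the maternal and Igf2 on the paternal copy. Igf2 encodes a fetal growth factor, and H19 is a noncoding RNA that also holds the hairpin of miR-675. Its 2 mature microRNAs are shown as the known processed products of the most abundant member, together with the pair from the hairpin inside Mest. They come from RefSeq (GRCm38.p6). The miR-675 pair lies on the minus strand at chr7:142577112-142577133 (5p) and chr7:142577078-142577099 (3p), and the miR-335 pair on the plus strand at chr6:30741314-30741336 (5p) and chr6:30741354-30741375 (3p). Capitals mark the seed, bases 2 to 8, and the 4 seeds all differ.
miR-675-5p: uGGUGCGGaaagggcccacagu
miR-675-3p: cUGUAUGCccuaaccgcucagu
miR-335-5p: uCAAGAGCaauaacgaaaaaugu
miR-335-3p: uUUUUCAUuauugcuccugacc

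The table lists the hairpin gene Mir675 at 0.0016 FPKM or less in every library, and Mir335 at 79.6 FPKM in Control 1 and at 0 in the other 3 libraries. The hairpins lie inside H19 and Mest on the same strand, and the sources do not say how reads were divided between the rows. These rows therefore say nothing about the mature microRNAs.

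H19 was at 1752 and 2551 FPKM in Control 1 and 2 and at 1607 and 1491 in Shh-Stk11 1 and 2. Both Shh-Stk11 libraries were lower than both Control libraries, but the 2 Control libraries differed by 0.54 on the log2 scale, more than the genotypes did. The log2 fold change was -0.45 (SE 0.26, 95% interval -1.08 to 0.18, limma adjusted p = 0.483). Without Control 1 it was -0.72, without Control 2 it was -0.18, and after quantile normalization it was -0.10.

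Igf2 was at 275 and 327 FPKM in Control 1 and 2 and at 316 and 211 in Shh-Stk11 1 and 2. The groups overlapped, and Shh-Stk11 2 alone was lower than every other library. The log2 fold change was -0.22 (SE 0.22, 95% interval -0.76 to 0.32, limma adjusted p = 0.701), and without Shh-Stk11 2 it was 0.07. The ratio of H19 to Igf2 was 6.37 and 7.80 in Control and 5.09 and 7.07 in Shh-Stk11, with overlap.

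The summed level of heart muscle markers had the same order among the libraries as Igf2. The sum over 9 genes, among them Actc1, Tnnt2 and Myh6, was 122 and 253 FPKM in Control and 150 and 61.3 in Shh-Stk11, highest in Control 2 and lowest in Shh-Stk11 2, as for H19 and Igf2. Of the 9 markers 7 were tested, and all 7 had a negative log2 fold change. The groups overlapped for all 7, beside 46.8% of all genes without overlap. None passed the threshold in limma or had an unadjusted p under 0.05, beside 2.27% and 15.2% of all genes. Of the atrial markers, Myl7 was at 42.3 and 108 FPKM in Control and 58.6 and 17.2 in Shh-Stk11, in the same order as the sum, and Nppa was at 0.290 FPKM or less, highest in Shh-Stk11 2. Myh7 did not follow the sum, at 12.2 and 8.25 FPKM in Control and 10.8 and 7.20 in Shh-Stk11. The part of heart tissue in the H19 and Igf2 values was not tested.

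Cdkn1c, at the far end of the same chromosome region, encodes an inhibitor of cyclin-dependent kinases that restrains growth. It was at 213 and 254 FPKM in Control 1 and 2 and at 248 and 267 in Shh-Stk11 1 and 2. The groups overlapped, with a log2 fold change of 0.15 (SE 0.16, 95% interval -0.23 to 0.52, limma adjusted p = 0.708). It was 0.02 without Control 1, 0.27 without Control 2 and 0.32 after the correction for length and GC content. The most abundant neighbour in this region was Cd81, at 354 and 323 FPKM in Control and 291 and 332 in Shh-Stk11 (-0.12, limma adjusted p = 0.765), or -0.03 without Shh-Stk11 1 and -0.22 without Shh-Stk11 2.

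Igf2r encodes the receptor that removes IGF2 from the cell surface and carries it to lysosomes. It was at 63.9 and 48.6 FPKM in Control 1 and 2 and at 54.6 and 45.8 in Shh-Stk11 1 and 2, and the groups overlapped. The log2 fold change was -0.16 (SE 0.17, 95% interval -0.57 to 0.26, limma adjusted p = 0.722), and it was 0.04 without Control 1, -0.08 after quantile normalization and -0.39 after the correction for length and GC content. Airn, the noncoding RNA that runs antisense through Igf2r on the paternal copy, was at 32.9 and 33.6 FPKM in Control and 31.0 and 34.7 in Shh-Stk11 (-0.02, limma adjusted p = 0.951). The sources do not say whether strand was used in the quantification. Without strand, reads of Igf2r and Airn cannot be told apart where they overlap.

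Grb10 encodes an adaptor that dampens signalling of the insulin and IGF1 receptors. It was at 223 and 204 FPKM in Control 1 and 2 and at 233 and 190 in Shh-Stk11 1 and 2. The levels interleaved, with a log2 fold change of -0.02 (SE 0.16, 95% interval -0.41 to 0.36, limma adjusted p = 0.965), and its sign turned in 4 of 15 other ways of processing. Its neighbour Ddc, which encodes the enzyme that makes dopamine and serotonin, was at 17.5 and 14.8 FPKM in Control and 10.1 and 7.96 in Shh-Stk11, without overlap (-0.84, limma adjusted p = 0.0631).

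Mest encodes an enzyme-like protein of the endoplasmic reticulum and is a known marker of fetal mesenchyme. It was at 645 and 694 FPKM in Control 1 and 2 and at 555 and 552 in Shh-Stk11 1 and 2. Both Shh-Stk11 libraries were lower, by a log2 fold change of -0.27 (SE 0.16, 95% interval -0.67 to 0.12, limma adjusted p = 0.501), and by -0.14 after quantile normalization. Copg2, whose transcript overlaps Mest on the opposite strand, was at 46.0 and 46.1 FPKM in Control and 43.1 and 46.6 in Shh-Stk11 (-0.04, limma adjusted p = 0.910).

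Plagl1 encodes a zinc finger transcription factor that is known to act on other imprinted genes. It was at 51.6 and 51.7 FPKM in Control 1 and 2 and at 63.5 and 48.3 in Shh-Stk11 1 and 2. The Shh-Stk11 libraries lay on either side of the Control libraries, with a log2 fold change of 0.10 (SE 0.16, 95% interval -0.28 to 0.48, limma adjusted p = 0.811). It was 0.18 after quantile normalization, 0.30 without Shh-Stk11 2 and -0.095 without Shh-Stk11 1. Its most abundant neighbour Ltv1, a ribosome assembly factor, was at 21.9 and 25.7 FPKM in Control and at 21.7 and 21.6 in Shh-Stk11 (-0.13, limma adjusted p = 0.686), or -0.02 without Control 2 and -0.25 without Control 1.

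**Figure D3:**
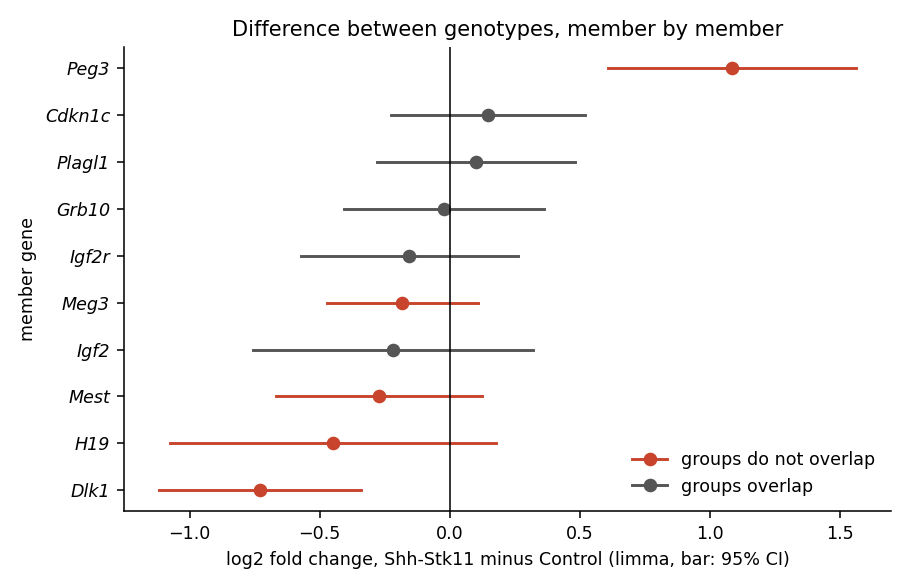
Log2 fold change of each member (point) with its 95% interval from limma (bar), in red where the groups do not overlap and in grey where they do. Only the intervals of Peg3 (0.61 to 1.56) and Dlk1 (-1.12 to -0.34) exclude 0 before adjustment for the number of genes tested.

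**Figure D4:**
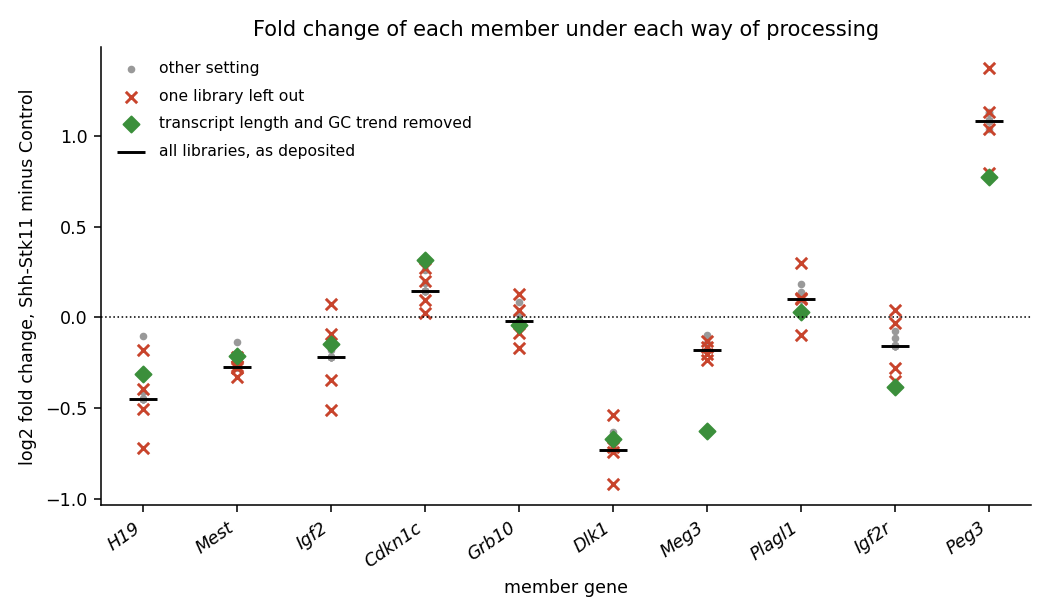
Log2 fold change of each member with all libraries (black dash), with 1 library left out (red crosses), with the length and GC trend removed (green diamonds) and under the other settings (grey points). Peg3 stays above 0 and Dlk1 below 0 throughout, while Igf2, Igf2r, Plagl1 and Grb10 cross 0.

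Cell type makeup bears on genes that are expressed mainly outside the epithelium. In whole lung, fewer cells of a type and less RNA per cell cannot be told apart. The 12 mesenchymal markers, among them Tcf21 and Tbx4, summed to 1223 and 1038 FPKM in Control and 957 and 930 in Shh-Stk11, with 10 of 12 lower, a median log2 fold change of -0.27 and none past the threshold in limma (5 at an unadjusted p under 0.05, beside 15.2% of all genes). The 10 endothelial markers summed to 807 and 696 FPKM in Control and 562 and 595 in Shh-Stk11, with a median of -0.34 and none past the threshold (4 at an unadjusted p under 0.05). The groups did not overlap for 8 of the 10, beside 46.8% of all genes. The sums of these lists and the members Dlk1, H19, Meg3 and Mest were lower in both Shh-Stk11 libraries, whereas Peg3 was higher in both, and their part in the members' values was not tested. The 10 epithelial markers, which include the lung epithelial factor Nkx2-1 at 170 to 207 FPKM, summed to 1197 and 1231 FPKM in Control and 1317 and 1524 in Shh-Stk11 (median 0.18, none past the threshold, 2 at an unadjusted p under 0.05).

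The other marker lists gave 1 call. Of 8 tested red blood cell markers 1 passed the threshold in limma, embryonic Hba-x, which was lower in Shh-Stk11 (adjusted p = 0.0158), beside 2.27% of all genes past it and 1.29% lower. All 8 had a negative log2 fold change (median -0.56), 6 without overlap, beside 46.8% of all genes, and 5 at an unadjusted p under 0.05, beside 15.2% of all genes. The list summed to 5595 and 5810 FPKM in Control and 3745 and 4107 in Shh-Stk11. None of 7 smooth muscle, 9 immune, 3 skeletal muscle, 6 cartilage, 2 liver or 2 neural markers tested passed, with 1, 1, 1, 0, 0 and 2 at an unadjusted p under 0.05. The liver markers summed to at most 3.42 FPKM in a library, and the skeletal muscle factor Myod1 was listed at 0 in all 4.

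Among the other imprinted genes, 1 stood out. Slc38a4, a paternally expressed amino acid transporter known for its part in placental growth, was at 20.0 and 18.9 FPKM in Control 1 and 2 and at 94.0 and 94.8 in Shh-Stk11 1 and 2. The libraries of each genotype were nearly equal, and the groups were far apart. It rose by 2.27 on the log2 scale (SE 0.12, 95% interval 1.99 to 2.55, limma adjusted p = 0.00145). The call held in all 15 other ways of processing, with a fold change between 2.21 and 2.35 on that scale and an adjusted p of at most 0.0338 in limma. Its value was larger than that of any member.

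Of 81 neighbours and other imprinted genes listed beside the members, 79 were in the table and 57 were tested. Zim1 and Slc38a4 passed the threshold, both higher, which is 3.51% of the 57 beside 2.27% of all genes. Their median log2 fold change was -0.02. The groups did not overlap for 27 of the 57, or 47.4%, beside 46.8% of all genes. The next largest differences outside the clusters were in Zdbf2, at 0.663 and 0.665 FPKM in Control and 1.53 and 1.25 in Shh-Stk11 (log2 fold change 0.95, limma adjusted p = 0.135), and in Ube3a, a ubiquitin ligase, at 14.7 and 13.1 FPKM in Control and 26.8 and 21.2 in Shh-Stk11 (0.78, limma adjusted p = 0.0643). Both are in the longest transcript group, and the correction for length and GC content left them at 0.36 and 0.11.

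**Figure D5:**
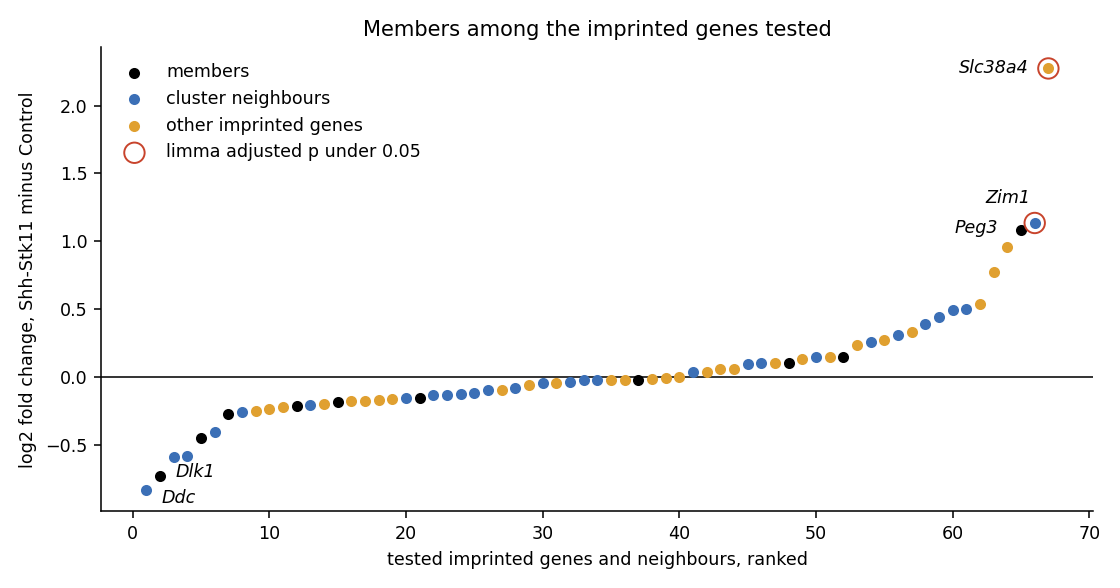
Log2 fold change of the 10 members (black), 28 tested cluster neighbours (blue) and 29 other tested imprinted genes (orange), ranked from lowest to highest, with a red ring around those with a limma adjusted p under 0.05. Slc38a4 at 2.27 and Zim1 at 1.13 carry the rings, and the members spread from Dlk1 at -0.73 to Peg3 at 1.09.

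The pathway in which Igf2, Igf2r and Grb10 act was read from 28 further genes, of which 25 were tested. Only Grb14, which encodes an adaptor of the same family as Grb10, passed the threshold, which is 4% of the 25 beside 2.27% of all genes. It was at 22.01 and 20.9 FPKM in Control 1 and 2 and at 38.4 and 42.0 in Shh-Stk11 1 and 2, a clear separation, and it rose by 0.90 on the log2 scale (SE 0.12, limma adjusted p = 0.0219). The call was lost whenever 1 library was left out, with adjusted p in limma of 0.115 without Control 1, 0.133 without Control 2, 0.0637 without Shh-Stk11 1 and 0.0903 without Shh-Stk11 2. Grb7, the third adaptor of the family, was at 12.6 and 12.6 FPKM in Control and at 12.7 and 11.9 in Shh-Stk11 and is named for comparison, outside the rule for naming genes.

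Besides Grb14, the largest fold changes in the pathway were in Igfals, Igfbp2 and Igf1. Igfals, which encodes a protein of the circulating IGF complex, was at 0.882 and 0.432 FPKM in Control and 1.34 and 1.41 in Shh-Stk11 (log2 fold change 1.03, limma adjusted p = 0.230), and its value was 0.59 without Control 2 and 1.47 without Control 1. Igfbp2, an IGF-binding protein, was at 31.2 and 55.0 FPKM in Control and 19.2 and 22.5 in Shh-Stk11 (-0.99, limma adjusted p = 0.123), and its value was -0.59 without Control 2 and -1.40 without Control 1. Igf1, the ligand related to IGF2, was at 20.3 and 17.1 FPKM in Control and 31.1 and 27.3 in Shh-Stk11 (0.64, limma adjusted p = 0.0832), and the correction for length and GC content left it at 0.18. The receptor gene Igf1r, also named for comparison, had a log2 fold change of 0.02 (limma adjusted p = 0.972). The median of the 25 genes was 0.02.

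Of 20 regulators of imprinting and RNA-binding proteins of fetal growth, 16 were tested and none passed the threshold in limma, with 2 at an unadjusted p under 0.05, beside 2.27% and 15.2% of all genes. Smchd1, a chromatin protein that silences some imprinted clusters, had the largest value. It was at 6.05 and 6.91 FPKM in Control and 13.4 and 10.03 in Shh-Stk11 (log2 fold change 0.83, limma adjusted p = 0.0751), and at 0.53 with the length and GC trend removed. Hmga2 followed at -0.55 (limma adjusted p = 0.507, groups overlapping), with -0.10 without Shh-Stk11 2, -0.30 without Control 2 and -1.01 without Shh-Stk11 1. Igf2bp2, which encodes a protein that binds Igf2 mRNA, was at -0.54 (limma adjusted p = 0.148).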

How the data were processed

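RNA was extracted from whole E16.5 lungs and sequenced as single-end 50-base reads. The authors deposited 1 table of FPKM per gene and library. The submitters' processing notes name TopHat2 2.0.13, Cufflinks 2.2.1 and the builds GRCm38 and mm9 without saying which was used for this table, so no positions are given for its rows. The annotation and strand setting were not given in the sources used here.

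Libraries were grouped by their labels. Genes whose mean reached 0.5 FPKM were tested on log2(FPKM + 0.1) with limma 3.58.1 (lmFit, eBayes with trend, 2-sided, genotype only) in R 4.3.3, with Benjamini-Hochberg adjustment over 13770 genes. A fold change on this scale understates changes of low genes. The procedure was tested on simulated data. Relative depth came from the low values of 1806 genes above 0 and under 0.3 FPKM in every library. For 78.2% of these genes, the values of all 4 libraries were whole multiples of 1 step, scaled to each library, within 0.5%. Totals assume the transcript lengths of the annotation used here, so they are approximate, and no counts were tested. Transcript length and GC content were taken from GENCODE M21 for each longest transcript, whichever one was quantified, matched by symbol for 20242 genes and by synonym for 1904, with 410 unmatched. Promoters and microRNAs are from RefSeq (GRCm38.p6).

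The members and gene lists were chosen with earlier results of these data known. All members were named; of each other list, the genes past the threshold and the 3 with the largest fold change, or, for neighbours, the most abundant of each cluster; marker lists were counted. Mirg, Usp29, Rtl1, Dio3, Begain, Grb7, Igf1r, Igf1 and some markers were named for context after their values were seen. Other ways of processing, 15 in all, covered the pseudocount, the minimum level, 2 scalings, 2 estimates of the spread, the replicate number, each library left out, and a length and GC correction.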

Additional observations from a re-analysis of the deposited data

How the results depend on the processing

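With 2 libraries per genotype, calls depended on the estimate of the spread, and a member that missed the threshold is not shown to be equal between genotypes. The 313 genes past the threshold (135 higher, 178 lower) became 61 without a minimum level, 587 with a robust spread (303 higher, 284 lower), 188 with the length and GC trend removed, 13 with replicate number as a block, and 38 to 191 with 1 library left out (49 without Control 1, 38 without Control 2, 169 without Shh-Stk11 1, 191 without Shh-Stk11 2). The 0 members past it became 1 with a pseudocount of 0.01, 1 with a minimum mean of 5 FPKM, 2 with the robust spread, and 0 to 1 with 1 library left out. The 2 other imprinted genes became 3 with a minimum mean of 5 FPKM (2 higher, 1 lower), 1 without a minimum level, 4 with the robust spread, 1 with the block, 1 with the trend on length and GC removed, and 1 in each fit with a library left out. The members' median of -0.17 ranged from -0.22 to 0.022 with 1 library left out. Leaving out a library also leaves its genotype with 1, which was assumed to vary like the other genotype.

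Of 150 member values under the 15 settings, 138 kept their direction and side of the threshold, 5 passed it and 7 changed sign. With 1 library left out, Igf2 ranged from -0.51 to 0.073 (highest without Shh-Stk11 2), Igf2r from -0.35 to 0.041 (highest without Control 1), Plagl1 from -0.095 (without Shh-Stk11 1) to 0.30, Grb10 from -0.17 to 0.13, Copg2 from -0.095 to 0.017 and Airn from -0.10 to 0.059. With quantile normalization Grb10 was at 0.084, Copg2 at 0.039 and Airn at 0.035, with median ratio scaling Grb10 was at 0.019, Copg2 at 0.0013 and Airn at 0.018, and with the trend on length and GC removed Cd81 was at 0.016 and Airn at 0.092. Both scalings moved the median of all genes by 0.04 or less. The cause was not tested.

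Libraries with the same replicate number did not deviate together (r = -0.114 over 13770 genes), so the number is not known to pair them. With the replicate block, the Slc38a4 call held, at a limma adjusted p of 0.0338, and the Zim1 and Grb14 calls were lost at 0.128 and 0.115. A block that crosses the numbers, added after this check, called 675 genes, 1 member and 4 other imprinted genes.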
